A study of Rattus norvegicus with 29 samples.

Results

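The genes described here are 10 rat genes that mark microglia or encode parts of the complement protein C1q: Csf1r, Cx3cr1, Itgam, Tyrobp, Fcer1g, Aif1, Ctss, Laptm5, C1qa and C1qb. They were taken by symbol, as every probe set annotated to 1 of these symbols alone, a rule that uses no measured value. This gave 11 probe sets, Aif1 having 2, among 15866 probe sets that carry 10411 named genes. A probe set is a group of short DNA probes on the array that together report 1 transcript. Of the 10 genes, 9 with 10 probe sets were bright enough to be tested, among 9520 probe sets and 7049 named genes. The gene left out of the tests, Itgam, is described by its values alone.

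RNA of the rat basolateral amygdala, a brain region where signals of danger are learned, was measured on 29 one-colour arrays, 1 per sample. Pain, isoflurane, FC and IFC had 5 arrays each, all taken 6 h after treatment, and untreated baseline controls had 9 arrays with no time given. FC and IFC were read through the series' design text as fear conditioning and as conditioning in the presence of isoflurane, an inhaled anaesthetic that impairs memory formation. Pain, a component of conditioning, was given alone in its group, and isoflurane was given alone in its own. Strain, sex and age are not given in the labels used here, and the 5 groups are not said to share any other treatment. Each sample is a piece of whole tissue, so fewer cells of a type and less RNA per cell cannot be told apart.

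Microglia are the resident macrophages of the brain, derived from the yolk sac and dependent on signalling through the receptor Csf1r for survival. They sense neurons through Cx3cr1, signal through the adaptors Tyrobp and Fcer1g, and break down engulfed material in lysosomes that hold proteases such as cathepsin S. They are also the main brain source of C1q, the first protein of the classical complement pathway, which tags material, including some synapses during development, for removal.

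No tested microglial or C1q probe set passed the adjusted threshold, over all 9520 probe sets, in any comparison. The 9 tested genes were bright enough to be measured. Within groups, each was correlated over the arrays with the mean of the others, and 4 of the 9 passed a permutation test adjusted over 7049 genes. The mean of the 9 also followed the median signal of the array (Pearson's r 0.58). Each of the 36 pairs had a Pearson's r above 0. For Laptm5 and Cx3cr1, r with the mean of the other genes was only 0.04 and 0.13 without baseline array 6 and FC array 5. On the log2 intensity scale, the spread between arrays of a group was 0.22 to 0.39 (SD) for the 10 tested probe sets. The largest differences between groups were found for Aif1, whose probe sets pointed in opposite ways.

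The label of microglia was checked against other markers. Of 38 further microglial and macrophage genes listed from general knowledge, 28 are on the array and 15 passed the brightness filter. Among those that passed are P2ry12 and Tmem119, which within the brain mark microglia, and also Lyz2 and Cd4. Among those too dim to pass are Ptprc, Cd68, Irf8, Cybb and Cd14. P2ry12, a receptor for nucleotides, has 2 tested probe sets. The dimmer one averaged 8.38 ± 0.20 in pain, 8.18 ± 0.53 in isoflurane, 8.18 ± 0.32 in FC, 8.08 ± 0.20 in IFC and 8.31 ± 0.31 in baseline (log2 intensity, SD, n = 5, 5, 5, 5 and 9). The brighter one averaged 9.39 ± 0.20 in pain, 9.34 ± 0.32 in isoflurane, 9.41 ± 0.26 in FC, 9.21 ± 0.17 in IFC and 9.36 ± 0.29 in baseline, so FC minus baseline was -0.13 by the dimmer and 0.05 by the brighter probe set. Of the markers of perivascular macrophages, monocytes and granulocytes 4 are on the array, S100a8, S100a9, Lyve1 and Ccr2. Mrc1 and Cd163, also listed, are not on it, so perivascular macrophages are covered only in part. Of lymphocyte markers 6 are on the array, and 0 of either list passed the filter. The summed signal of those 4 macrophage, monocyte and granulocyte markers ran between 80.8 and 142.2 in pain, 102.6 and 167.9 in isoflurane, 124.9 and 198.8 in FC, 73.1 and 163.8 in IFC, and 60.4 and 184.6 in baseline. The 6 lymphocyte markers summed to between 212.9 and 496.3 in pain, 211.2 and 396.8 in isoflurane, 237.9 and 327.4 in FC, 224.2 and 343.8 in IFC, and 164.2 and 363.9 in baseline. Both sums lie far below those of the 11 microglial and C1q probe sets, which in baseline summed to a median of 12257. These are sums of linear signal over different probes and show only which lists were dim.

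Some arrays stood apart. The median deposited signal was 292.2 on pain array 3 and between 210.7 and 249.95 on the other 28. The ratio of 3' to 5' probe signal, which rises when RNA is degraded, was 1.02 to 1.40 for Gapdh and 1.14 to 2.21 for beta-actin, with the highest beta-actin ratio on isoflurane array 2. Rat numbers are given for 15 arrays, those of pain, FC and IFC. Whether the other 14 came from separate animals is not stated, so p-values measure the spread between arrays, which may in part be technical. The labels name the labelling kit of the baseline and isoflurane arrays but of no others. A difference of pain, FC or IFC from baseline, or of IFC from isoflurane, thus cannot be told apart from a difference of kit. The rat numbers of pain form a run apart from those of FC and IFC, which are mixed. Isoflurane samples are numbered in the series apart from all other groups. What these runs stand for is not stated. A difference of FC from pain, or of isoflurane from another group, cannot be told apart from a difference of run.

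**Figure D1:**
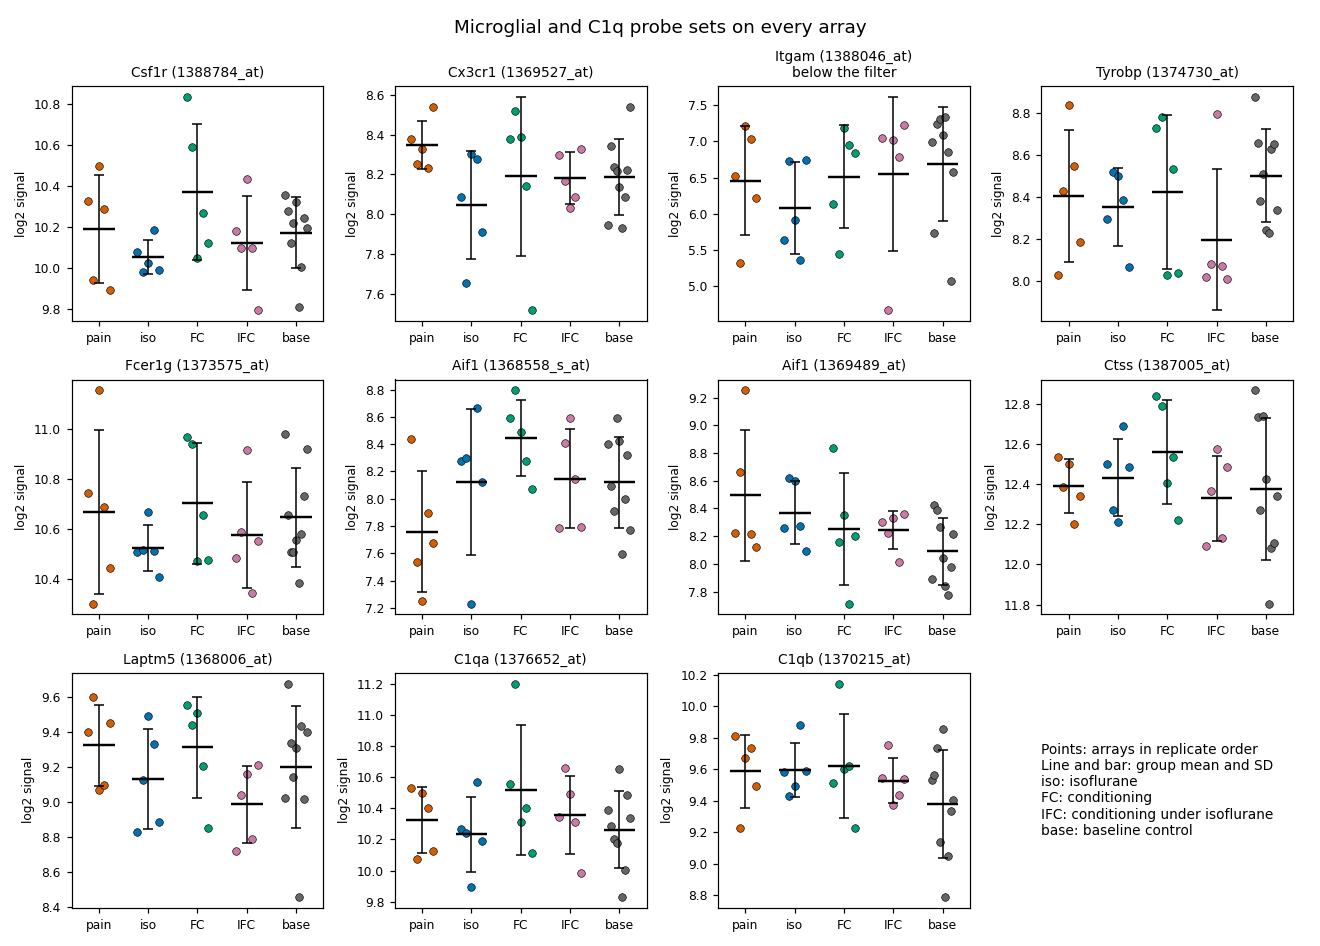
Log2 intensity of the microglial and C1q probe sets (1 panel each) on every array, by group, with the tested probe sets and the dim Itgam probe set; points are arrays and bars are group means with SD (n = 5 each, baseline n = 9). In every panel the groups overlap, and the Itgam panel spans the widest range, with its lowest IFC array at 4.67.

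The receptors were considered first. Csf1r, on chromosome 18 (56834152 to 56860804, GRCr8), encodes the receptor for the growth factors Csf1 and Il34. Its values were 10.33, 9.94, 10.50, 10.29 and 9.89 in pain, 10.08, 9.98, 10.02, 10.18 and 9.99 in isoflurane, 10.84, 10.59, 10.05, 10.27 and 10.12 in FC, and 10.18, 10.10, 10.44, 10.10 and 9.79 in IFC, against 9.81, 10.22 and 10.36 as lowest, median and highest in baseline (log2 intensity). FC arrays 1 and 2 lay above every baseline array, while the other 3 FC arrays lay within the baseline range. FC minus baseline was 0.20 (95% interval -0.04 to 0.45), and IFC minus FC was -0.25 (-0.53 to 0.03). Neither passed limma's moderated test over all 9520 probe sets, with adjusted p of 0.570 and 0.999.

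Cx3cr1, on chromosome 8 (128661294 to 128679048, GRCr8), encodes the receptor for the neuronal chemokine Cx3cl1. Its group means were 8.35 ± 0.12 in pain, 8.05 ± 0.27 in isoflurane, 8.19 ± 0.40 in FC, 8.18 ± 0.13 in IFC and 8.19 ± 0.19 in baseline (log2 intensity, SD, n = 5, 5, 5, 5 and 9). FC array 5, at 7.52, was the lowest of all 29 arrays for Cx3cr1, and the other 4 FC arrays had 8.14 to 8.52. FC minus baseline was 0.00 (-0.27 to 0.28), an interval that leaves room for differences of about that size either way.

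Itgam, on chromosome 1 (192089496 to 192139947, GRCr8), encodes an integrin subunit of complement receptor 3, which binds complement-coated material. Its only probe set averaged 6.49, at the 28.0th percentile of all probe sets, and was therefore not tested. Its SD within groups was 0.80, above that of every tested microglial or C1q probe set. Values ran between 5.32 and 7.22 in pain, 5.36 and 6.74 in isoflurane, 5.44 and 7.18 in FC, 4.67 and 7.23 in IFC, and 5.07 and 7.33 in baseline (log2 intensity), so all groups overlapped. With no brightness filter, the F test over the 5 groups gave Itgam an adjusted p of 0.924 in limma.

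The adaptors Tyrobp and Fcer1g carry the signalling motifs through which activating receptors such as Trem2 and the Fc receptors act. For Tyrobp, on chromosome 1 (94800372 to 94804307, GRCr8), the values were 8.03, 8.43, 8.84, 8.55 and 8.18 in pain, 8.30, 8.52, 8.50, 8.39 and 8.06 in isoflurane, 8.73, 8.78, 8.03, 8.53 and 8.04 in FC, and 8.02, 8.08, 8.79, 8.07 and 8.01 in IFC, against 8.23, 8.51 and 8.88 in baseline as lowest, median and highest (log2 intensity). In IFC, 4 arrays lay below the whole baseline range, while array 3 lay near its top. IFC minus baseline was -0.31 (standard error, SE, 0.15, unadjusted p 0.0535, adjusted p 0.765, limma over 9520 probe sets). Without IFC array 3 it was -0.46, with an adjusted p of 0.947 in limma.

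Fcer1g, on chromosome 13 (86181908 to 86186766, GRCr8), encodes the common gamma chain of Fc receptors. It was steady, with group means of 10.67 ± 0.33 in pain, 10.52 ± 0.09 in isoflurane, 10.70 ± 0.24 in FC, 10.58 ± 0.21 in IFC and 10.65 ± 0.20 in baseline (log2 intensity, SD, n = 5, 5, 5, 5 and 9). Its highest array was pain array 3, at 11.15, the array with the brightest median signal. Its differences from baseline lay between -0.12 in isoflurane and 0.06 in FC.

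Among the 2 lysosomal genes, Ctss was one of the brightest genes on the array. It lies on chromosome 2 (185775316 to 185803440, GRCr8) and encodes cathepsin S, a cysteine protease that cuts proteins for antigen presentation. It averaged 12.41 and stood at the 98.7th percentile of all probe sets. Its values were 12.54, 12.38, 12.50, 12.20 and 12.34 in pain, 12.50, 12.27, 12.21, 12.69 and 12.49 in isoflurane, 12.84, 12.79, 12.41, 12.54 and 12.22 in FC, and 12.09, 12.37, 12.57, 12.13 and 12.49 in IFC, against 11.80, 12.34 and 12.87 in baseline as lowest, median and highest (log2 intensity). The baseline range held every treated array. FC minus baseline was 0.18 (-0.09 to 0.46). Against baseline replicates 1 to 5 alone FC minus baseline was -0.05. Within baseline, replicates 6 to 9, whose numbers no other group has, averaged 12.08 ± 0.22 (n = 4) and replicates 1 to 5 averaged 12.61 ± 0.25 (n = 5), a difference of -0.53 that was larger than that of any treated group from baseline for Ctss and was not tested.

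Laptm5, on chromosome 5 (148371880 to 148393927, GRCr8), encodes a lysosomal membrane protein of blood-lineage cells. Its group means were 9.33 ± 0.23 in pain, 9.13 ± 0.28 in isoflurane, 9.31 ± 0.29 in FC, 8.99 ± 0.22 in IFC and 9.20 ± 0.35 in baseline (log2 intensity, SD, n = 5, 5, 5, 5 and 9). Its IFC arrays had 8.72 to 9.22 and its FC arrays 8.85 to 9.55, so they overlapped. IFC minus FC was -0.33 (SE 0.18, adjusted p 0.999, limma).

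Aif1, on chromosome 20 (3651435 to 3657341, GRCr8), encodes the calcium-binding protein Iba1, the usual antibody marker of microglia. Its 2 probe sets, told apart here by their suffixes as the _s_at and the _at probe set, were made against the same transcript record, yet over the 29 arrays, with group means taken out, their correlation was -0.22 (Spearman's rho -0.17). By the _at probe set the values were 8.22, 8.67, 9.25, 8.22 and 8.12 in pain, against 7.78, 8.04 and 8.43 in baseline as lowest, median and highest. By the _s_at probe set they were 8.43, 7.54, 7.25, 7.89 and 7.68 in pain, against 7.59, 8.09 and 8.59 in baseline. Pain array 3 was thus the highest of its group by the _at probe set and the lowest by the _s_at one.

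Pain minus baseline was 0.40 (0.06 to 0.74) by the _at probe set, with an unadjusted p of 0.0211 and an adjusted p of 0.493 in limma. By the _s_at probe set it was -0.36 (-0.78 to 0.06), with an adjusted p that also missed the threshold. Without pain array 3 the first of these differences was 0.21. FC minus pain was 0.69 by the _s_at probe set (SE 0.23, unadjusted p 0.00604, adjusted p 0.463, limma) and -0.24 by the _at probe set. No direction is therefore given for Aif1 in pain. Averaged over both probe sets, Aif1 enters the counts below as 1 gene.

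The 2 C1q genes lie beside each other on chromosome 5 with the gene of the remaining chain, C1qc, between them; the 3 genes span 17658 bases (GRCr8). C1qa (154417086 to 154419933) and C1qb (154402276 to 154407827) encode the A and B chains of C1q. C1qa had 10.53, 10.07, 10.50, 10.40 and 10.13 in pain, 10.27, 10.24, 9.90, 10.57 and 10.19 in isoflurane, 10.56, 11.20, 10.31, 10.40 and 10.11 in FC, and 10.35, 10.66, 10.49, 10.31 and 9.98 in IFC, against 9.83, 10.29 and 10.65 in baseline as lowest, median and highest (log2 intensity). FC array 2 was the highest of all 29 for C1qa, and the other 4 FC arrays lay within the baseline range. FC minus baseline was 0.25 (SE 0.14, adjusted p 0.548, limma), and 0.08 without FC array 2.

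C1qb had 9.81, 9.23, 9.67, 9.73 and 9.49 in pain, 9.58, 9.43, 9.50, 9.88 and 9.59 in isoflurane, 9.52, 10.14, 9.60, 9.62 and 9.23 in FC, and 9.54, 9.75, 9.38, 9.43 and 9.54 in IFC, against 8.79, 9.41 and 9.85 in baseline as lowest, median and highest (log2 intensity). FC array 2 was again the highest, and baseline array 6 the lowest. C1qb differed from baseline by 0.21 in pain, 0.22 in isoflurane, 0.24 in FC and 0.15 in IFC. These 4 differences share the 9 baseline arrays. Those arrays themselves differed by number: replicates 6 to 9 averaged 9.15 ± 0.28 (n = 4) and replicates 1 to 5 averaged 9.57 ± 0.27 (n = 5). Against baseline replicates 1 to 5 alone the differences of C1qb were 0.02 in pain, 0.03 in isoflurane, 0.06 in FC and -0.04 in IFC. C1qc averaged 8.78 ± 0.18 in pain, 8.89 ± 0.20 in isoflurane, 8.95 ± 0.24 in FC, 8.87 ± 0.16 in IFC and 8.77 ± 0.21 in baseline.

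Counted over all comparisons, 0 of the 10 tested microglial and C1q probe sets passed an adjusted p of 0.05 in limma in any of 7 comparisons of 2 groups, in the interaction or in the F test over the 5 groups. Among all 9520 probe sets the share called was 0.0105% in isoflurane minus baseline and 0% in the remaining comparisons, so the array as a whole held almost no calls. The lowest F test p among the microglial and C1q probe sets was 0.0936, for Aif1 by the _s_at probe set (adjusted p 0.685). At an unadjusted p under 0.05, 1 of the 10 probe sets was past it in pain minus baseline, where 8.96% of all probe sets were, and 1 of 10 in FC minus pain, where 9.04% were. None of the 10 was past it in isoflurane minus baseline (5.38% of all), FC minus baseline (10.1%), IFC minus baseline (6.5%), IFC minus FC (3.69%), IFC minus isoflurane (4%), the interaction (4.79%) or the F test (7.35%). In no comparison were the groups of a tested microglial or C1q probe set free of overlap, against 0.116% of all probe sets in pain minus baseline, 0.137% in isoflurane minus baseline, 0.116% in FC minus baseline, 0.221% in IFC minus baseline, 1.13% in FC minus pain, 0.704% in IFC minus FC and 0.924% in IFC minus isoflurane.

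The precision of these arrays can be read from the intervals. Over the 10 probe sets, the 95% intervals of FC minus baseline ran between -0.39 and 0.74, and those of isoflurane minus baseline between -0.46 and 0.62 (log2). The interval of each single probe set was narrower than these ranges.

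**Figure D2:**
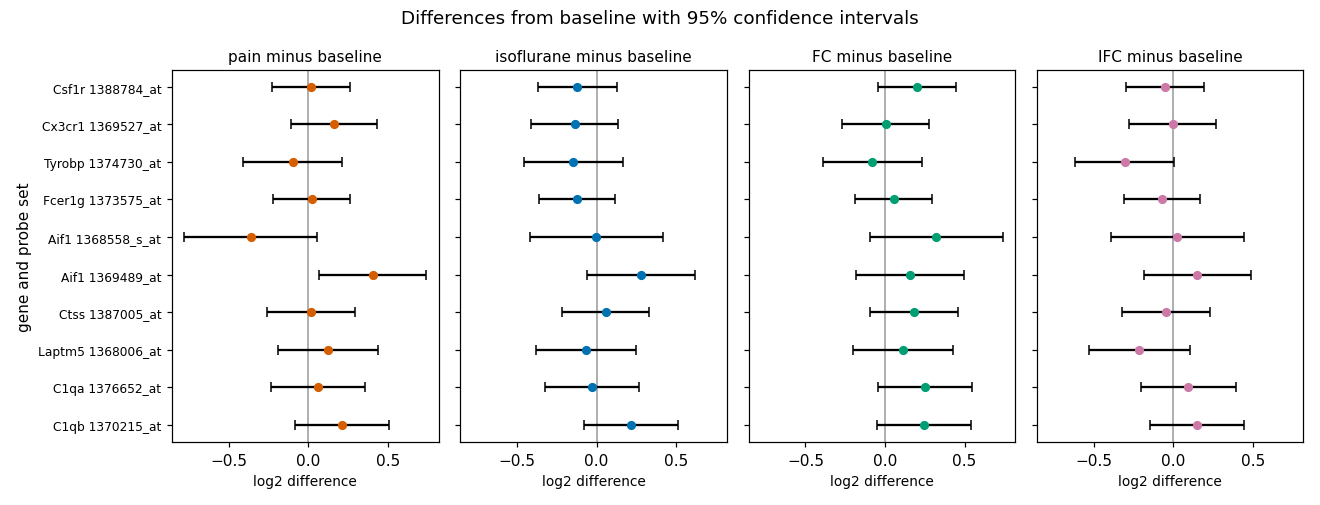
Log2 difference of pain, isoflurane, FC and IFC from baseline, with its 95% interval (limma), for each tested microglial and C1q probe set. Every interval shown holds 0 except that of Aif1 by the _at probe set in pain minus baseline (0.40), which did not pass after adjustment.

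Taking each gene once, the median difference over the 9 genes was 0.02 in pain minus baseline, -0.07 in isoflurane minus baseline, 0.18 in FC minus baseline and -0.05 in IFC minus baseline. The medians over all 7049 genes were -0.0031, -0.00018, -0.0088 and -0.0021 for the same comparisons. The median of 0.02 in pain minus baseline is the value of Aif1 itself, averaged over 2 probe sets that pointed in opposite ways. Above 0 were 8 of the 9 genes in pain minus baseline, 3 in isoflurane minus baseline, 8 in FC minus baseline and 3 in IFC minus baseline. Of all 7049 genes, 49.0%, 49.9%, 47.7% and 49.3% were above 0 in these comparisons, in that order. These counts share the baseline arrays, and the genes move together between arrays, so they are not independent. In the mean of the 9 genes, each set to its own average over all arrays, FC ran between -0.26 on array 5 and 0.43 on array 2, and baseline between -0.45 on array 6 and 0.16 on array 2. The 2 extreme FC arrays thus lay on opposite sides of most baseline arrays, and without FC array 2 the median of FC minus baseline was 0.08.

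Between treated groups, FC minus pain had a median of 0.04 over the 9 genes, and without FC array 2 it was -0.02. Above 0 were 7 of the 9, beside 48.6% of all genes. IFC minus FC had a median of -0.16 with 0 of 9 genes above 0, where 52.6% of all genes were above 0 and the median over all genes was 0.0086. Laptm5 was lowest in that comparison, at -0.33, and Cx3cr1 highest, at -0.01. IFC minus isoflurane had a median of -0.05 with 4 of 9 above 0, where 49.8% of all genes were. The interaction is (IFC minus isoflurane) minus (FC minus baseline) and asks whether conditioning had a different effect under isoflurane. Its median was -0.13 with 1 of 9 above 0, where 52.1% of all genes were. C1qb had the lowest interaction, -0.31 (SE 0.22, adjusted p 0.960, limma), and -0.18 without FC array 2. It was -0.54 with baseline replicates 6 to 9 alone as the baseline and -0.12 with a replicate block, which leaves those 4 arrays out. Its IFC minus isoflurane was -0.07 beside an FC minus baseline of 0.24.

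The values of markers of other cells in the same comparisons were as follows. In FC minus baseline the median over 7 oligodendrocyte genes was 0.36, with 7 above 0, and over 8 astrocyte genes 0.19, with 8 above 0. Over 4 endothelial and pericyte genes it was 0.29 and over 6 neuronal genes -0.01. In IFC minus FC the median was -0.28 over the oligodendrocyte genes, with 0 of 7 above 0, and -0.09 over the astrocyte genes, with 2 of 8 above 0. In the interaction it was -0.35 over the oligodendrocyte genes, with 0 of 7 above 0, and -0.10 over the astrocyte genes, with 2 of 8 above 0. Hbb, a haemoglobin gene of red blood cells, differed by -1.19 in pain minus baseline (SE 0.24, adjusted p 0.0704, limma). The summed signal of the 11 oligodendrocyte probe sets ran between 31946 and 43849 in FC and between 24016 and 39340 in baseline. That of the 15 astrocyte probe sets ran between 38874 and 49002 in FC and between 31210 and 39163 in baseline. None of these lists held a called probe set, and the part of cell makeup and of blood in the microglial differences was not tested.

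Within groups, the microglial and C1q genes varied together to differing degrees. After each group's mean was taken out, every gene was correlated over the 29 arrays with the mean of the other 8. Pearson's r was highest for Csf1r, at 0.77 (Spearman's rho 0.79), followed by C1qa (0.71, rho 0.72), Ctss (0.71, rho 0.63), Fcer1g (0.65, rho 0.72), Aif1 (0.65, rho 0.66) and C1qb (0.61, rho 0.48). Tyrobp (0.49, rho 0.47), Cx3cr1 (0.43, rho 0.24) and Laptm5 (0.41, rho 0.18) followed. For comparison, the 7040 other tested genes had a median r of -0.03 with the mean of the 9 genes and a 95th percentile of 0.46. Of the 9 genes, 7 lay above that percentile. For Aif1 the value of 0.65 is that of the mean of its 2 probe sets. Alone the _s_at probe set had 0.45 and the _at probe set 0.35, each below that percentile.

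A permutation test, with 100000 two-sided resamples of arrays within groups, was run for every one of the 7049 genes and adjusted over all of them. It gave Csf1r a p of 3e-05 for r and 1e-05 for rho, the value for rho being the smallest that the permutations can give, with adjusted p of 0.0163 and 0.0176. Csf1r, Fcer1g, Ctss and C1qa passed for r, 4 of the 9 genes, where 0.95% of all 7049 genes passed. Their adjusted p was 0.0163, 0.0288, 0.0282 and 0.0352 in that order. The other 5 had adjusted p of 0.0691 for Aif1, 0.0791 for C1qb, 0.169 for Tyrobp, 0.264 for Laptm5 and 0.296 for Cx3cr1. For rho 3 genes passed, Csf1r, Fcer1g and C1qa, while Ctss had 0.0573. Over all 7049 genes, 67 passed for r, 34 of them with r above 0, so many others ran opposite to the microglial and C1q genes. An unadjusted p under 0.05 for r was found in this permutation test for 18.4% of all genes.

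The arrays farthest from the middle were baseline array 6, on which the 9 genes were low, and FC array 5. Without both, r was 0.74 for Csf1r, 0.63 for Fcer1g, 0.61 for C1qa, 0.57 for Ctss and 0.55 for Aif1. It was 0.40 for C1qb and 0.38 for Tyrobp, and only 0.13 for Cx3cr1 and 0.04 for Laptm5, whose relation rests on those 2 arrays. Within the 9 baseline arrays alone, r was 0.93 for Csf1r, 0.72 for Ctss, 0.71 for C1qa and 0.34 for Tyrobp. Itgam, which was dim, had an r of -0.33 with the mean of the 9 other genes.

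**Figure D3:**
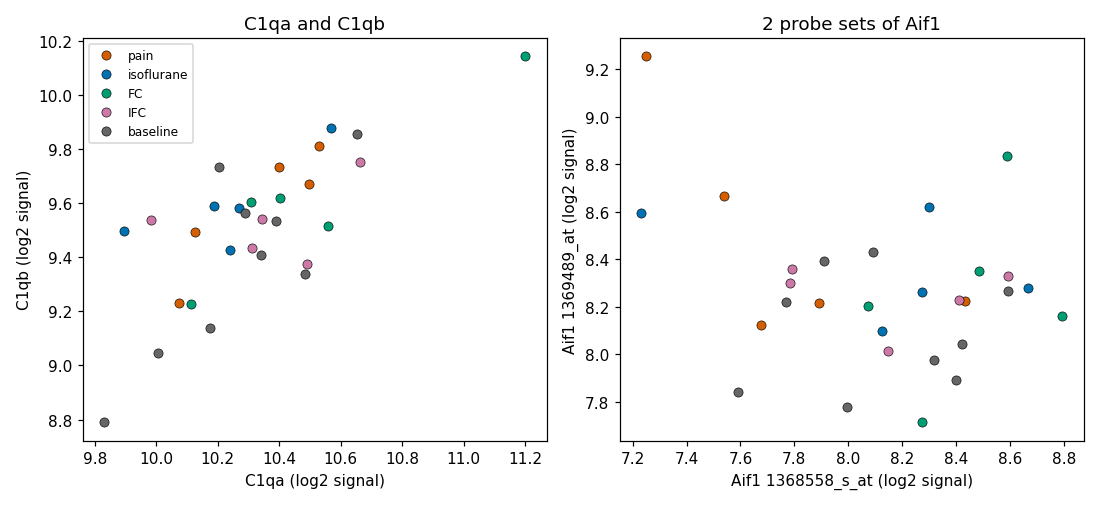
Log2 intensity of C1qa against C1qb (left) and of the _s_at against the _at probe set of Aif1 (right). Points are the 29 arrays, coloured by group, and group means are not taken out here. With group means taken out, r was 0.78 for C1qa and C1qb and -0.22 for the Aif1 probe sets.

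Among the 36 pairs, r ran between 0.07 (Cx3cr1 and Tyrobp) and 0.78 (C1qa and C1qb), with a median of 0.41, and 11 pairs were above 0.5. By Spearman's rho, Cx3cr1 and Tyrobp were at -0.01 and Laptm5 and C1qa at -0.04. Without baseline array 6 and FC array 5, r of Laptm5 and C1qa was -0.19. The neighbouring genes C1qa and C1qb had an r of 0.78 (rho 0.69), and 0.68 without baseline array 6 and FC array 2. C1qc had an r of 0.37 with C1qa and 0.33 with C1qb, and of 0.25 and 0.20 without the same 2 arrays. Among the receptor and adaptor genes, r was 0.77 for Csf1r and Fcer1g, 0.71 for Tyrobp and Fcer1g, and 0.65 for Csf1r and Tyrobp, while Cx3cr1 had 0.25 with Fcer1g, 0.22 with Csf1r and 0.07 with Tyrobp. Csf1r and C1qa had 0.73. Cx3cr1 and Laptm5 had 0.59 with each other. All pairs come from the same 29 arrays, and these values are given as a description.

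**Figure D4:**
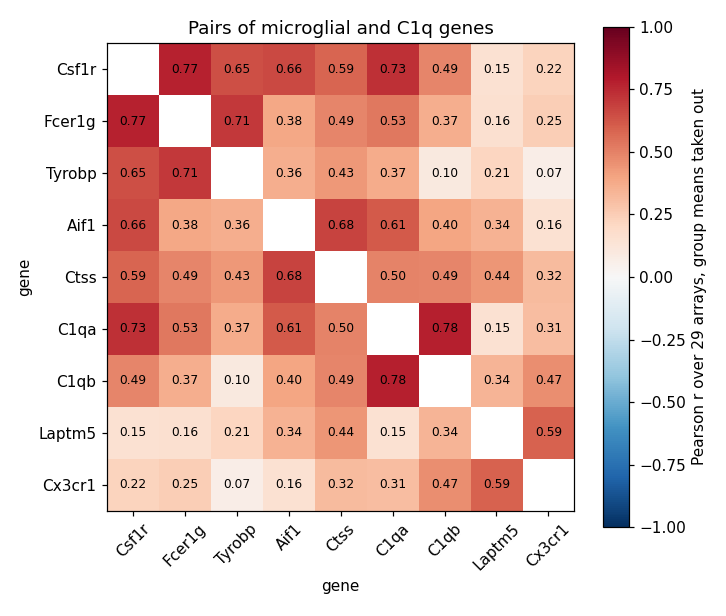
Pearson's r between the 9 tested microglial and C1q genes over 29 arrays, with group means taken out; each cell is a pair and the colour runs from -1 to 1. All 36 pairs are above 0, C1qa with C1qb is highest at 0.78, and Cx3cr1 with Laptm5 is at 0.59.

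Other measures of the arrays moved with the mean of the 9 genes. Over the 29 arrays, with group means taken out, r with that mean was 0.66 for the mean of 15 other microglial and macrophage genes, 0.56 for 9 other complement genes, 0.53 for 8 astrocyte genes and 0.36 for 7 oligodendrocyte genes. It was -0.33 for 6 neuronal genes and 0.02 for 4 genes of excitatory projection neurons. It was 0.58 for the median deposited signal of the array, -0.28 for the Gapdh 3' to 5' ratio and -0.34 for that of beta-actin. Within the 9 baseline arrays alone the order differed. There, r with that mean was 0.79 for the median signal and 0.74 for the oligodendrocyte genes. It was 0.36 for the astrocyte genes and only 0.33 for the 15 other microglial and macrophage genes. With the median signal taken out, the median r of the 9 genes with the mean of the others was 0.52, against 0.65 without that step. The part of array brightness beyond this step was not tested.

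The 8 genes outside the list whose pattern was most like the mean of the 9 genes, by Pearson's r over 29 arrays with group means taken out, were Tmem176b (0.84), Anxa3 (0.84), Npc2 (0.83), Arhgdib (0.78), Eif4ebp2 (0.77), Rnase4 (0.77), Thrsp (0.76) and Ctsh (0.76). Npc2 is a lysosomal cholesterol-binding protein and Ctsh a lysosomal cysteine protease. Arhgdib is 1 of the 15 other microglial genes that were tested. Anxa3 binds phospholipids in the presence of calcium, Rnase4 is a secreted ribonuclease and Eif4ebp2 holds back the start of translation. In the 9 baseline arrays alone their r ran between 0.81 for Thrsp and Ctsh and 0.97 for Rnase4.

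The promoter windows in RefSeq's table for GRCr8, which run 250 bases before to 50 after the start that the table uses, were searched for GAGGAA and its reverse complement TTCCTC, the core of sites of PU.1, a transcription factor of macrophages and microglia. The table holds 7 of the 10 genes; Tyrobp, Fcer1g and Aif1 were not matched. Of these 7, 5 hold the motif (Csf1r, Itgam, Ctss, Laptm5 and C1qb) and Cx3cr1 and C1qa do not, while 27.6% of all 33469 promoters in the table hold it. Shown are the promoters of Csf1r, Ctss and C1qb, which hold the motif, and that of C1qa, the neighbour of C1qb, which lacks it. Not shown are Laptm5 and Itgam, which hold it too. Their r with the mean of the other genes was 0.41, the lowest of the tested genes, and -0.33. Any relation of the motif to how closely a gene varied with the rest was not tested. Motifs are in capitals, and each sequence is read 5′ to 3′ on the gene's strand. Csf1r is at chr18:56834129-56834428 (+ strand), Ctss at chr2:185775146-185775445 (+ strand), C1qb at chr5:154407778-154408077 (- strand) and C1qa at chr5:154419884-154420183 (- strand). For C1qa, C1qb and Laptm5 the table's start is the first base of the gene as given above, but it lies 227 bases inside the gene for Csf1r, 96 for Itgam, 80 for Ctss and 1982 for Cx3cr1, so these 4 windows reach further into the gene, and that of Cx3cr1 lies wholly inside it.
Csf1r promoter: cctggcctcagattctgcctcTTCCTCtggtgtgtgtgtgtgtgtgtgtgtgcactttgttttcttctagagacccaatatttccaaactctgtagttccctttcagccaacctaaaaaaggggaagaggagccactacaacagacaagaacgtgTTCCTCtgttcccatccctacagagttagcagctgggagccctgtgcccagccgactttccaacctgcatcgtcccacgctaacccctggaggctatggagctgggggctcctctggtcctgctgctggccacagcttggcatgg
Ctss promoter: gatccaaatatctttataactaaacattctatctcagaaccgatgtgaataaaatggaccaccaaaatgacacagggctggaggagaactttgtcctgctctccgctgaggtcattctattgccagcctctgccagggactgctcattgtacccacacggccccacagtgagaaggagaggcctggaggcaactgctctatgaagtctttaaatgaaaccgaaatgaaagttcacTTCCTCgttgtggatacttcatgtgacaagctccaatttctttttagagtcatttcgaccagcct
C1qb promoter: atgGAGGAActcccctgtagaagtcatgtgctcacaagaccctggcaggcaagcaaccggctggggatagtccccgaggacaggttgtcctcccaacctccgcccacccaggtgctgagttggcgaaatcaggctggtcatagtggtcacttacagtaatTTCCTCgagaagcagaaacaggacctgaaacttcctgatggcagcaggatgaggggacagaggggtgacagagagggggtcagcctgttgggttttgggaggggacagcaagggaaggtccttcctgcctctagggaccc
C1qa promoter: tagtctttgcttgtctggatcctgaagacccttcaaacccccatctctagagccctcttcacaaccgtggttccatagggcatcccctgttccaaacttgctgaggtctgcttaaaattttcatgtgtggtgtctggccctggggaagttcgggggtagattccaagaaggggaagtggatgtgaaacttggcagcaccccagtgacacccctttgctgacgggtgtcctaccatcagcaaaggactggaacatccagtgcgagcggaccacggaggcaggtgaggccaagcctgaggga
Counted from 1 at the first base printed, the Csf1r motifs begin at bases 22 and 156 and that of Ctss at base 236. Those of C1qb begin at bases 4 and 161, and the table's start is at base 251. By the gene bounds given above, the second Csf1r motif and the Ctss motif lie inside the gene. The first Csf1r motif spans the first base of its gene, and both C1qb motifs lie before theirs. Thus C1qa and C1qb, whose levels had the highest correlation of all pairs, differ in whether these 6 letters occur in this window. A match is a stretch of letters and not a measured binding site, and its absence says only that these letters are not in this window.

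Of 3 ligands of the microglial receptors, Csf1 and Cx3cl1 are on the array. Csf1, which activates Csf1r, averaged 8.94 ± 0.67 in pain, 8.48 ± 0.35 in isoflurane, 8.40 ± 0.13 in FC, 8.42 ± 0.22 in IFC and 8.40 ± 0.31 in baseline (log2 intensity, SD, n = 5, 5, 5, 5 and 9). Pain array 3 was at 10.09, while the other groups did not exceed 8.96. Pain minus baseline was 0.54 (SE 0.19, unadjusted p 0.00883, adjusted p 0.445, limma), and 0.26 without pain array 3. Cx3cl1, the ligand of Cx3cr1, averaged 11.42 ± 0.12 in pain, 11.38 ± 0.21 in isoflurane, 11.48 ± 0.24 in FC, 11.48 ± 0.15 in IFC and 11.45 ± 0.16 in baseline.

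Of the 15 other microglial and macrophage genes tested, 0 passed the adjusted threshold in any comparison in limma. Their median was 0.18 in pain minus baseline, with 13 of 15 above 0, and 0.07 in FC minus baseline, with 10 above 0. At an unadjusted p under 0.05, 2 of their 16 probe sets were past it in pain minus baseline, beside 8.96% of all probe sets, and 1 of 16 in FC minus baseline, beside 10.1% of all, shares near those of the whole array. The one in FC minus baseline belongs to Rac2, a small GTPase of the phagocyte oxidase, with 8.15 ± 0.28 in FC and 7.67 ± 0.40 in baseline (SD, n = 5 and 9), a difference of 0.48 (adjusted p 0.419, limma). Rac2 averaged 8.08 ± 0.17 in IFC, 7.81 ± 0.21 in pain and 7.70 ± 0.43 in isoflurane.

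Of 34 other complement genes, 23 are on the array and 9 passed the brightness filter, and 0 were called in any comparison in limma. Their median in FC minus baseline was 0.16, with 8 of 9 above 0, and in IFC minus FC -0.08, with 1 of 9 above 0. C9, a subunit of the pore that ends the complement cascade, averaged 7.36 ± 0.23 in IFC and 7.86 ± 0.14 in FC (SD, n = 5 each), a difference of -0.50 (SE 0.18, unadjusted p 0.00828, adjusted p 0.999, limma). The 5 IFC arrays, at 7.08 to 7.56, lay below the 5 FC arrays, at 7.64 to 7.97, and 0.704% of all probe sets were likewise free of overlap in that comparison. C1qbp, a mitochondrial protein first found by its binding to C1q, differed by 0.29 in the same comparison (adjusted p 0.999, limma), and neither difference passed.

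Inflammatory signals that activated microglia release were mostly too dim to test. All 15 listed cytokine and inflammatory genes are on the array, and 1 of them, Il18, passed the brightness filter. Its difference was 0.09 in pain minus baseline, 0.01 in isoflurane minus baseline, 0.06 in FC minus baseline and 0.15 in IFC minus baseline, with adjusted p in limma of 0.916 or more.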

How the data were processed

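The deposited table holds linear, scaled intensity values for 29 one-colour arrays of rat basolateral amygdala. The trimmed mean (2% left out at each end) was 500.08 to 500.12 on every array, so the authors' values had been scaled per array; the software is not given in the sources used here. After 57 control probe sets were left out, 15866 remained, 12783 with 1 gene symbol, 312 with several and 2771 with none. Because array medians differed by 0.47 (log2), above a limit of 0.2, signals were quantile normalized across arrays, floored at 16 and log2 transformed. Testing was limited to probe sets whose mean reached the 40th percentile (7.26).

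Each probe set was fitted with limma 3.58.1 in R 4.3.3 (1 mean per group, all 29 arrays, eBayes with trend, two-sided), with Benjamini-Hochberg adjustment over 9520 probe sets and a threshold of 0.05. Correlations used Python 3.11.15 and numpy 2.4.6, with group means taken out and permutation tests within groups, adjusted over 7049 genes in place of the members alone. The fit was tested on simulated data. Gene symbols come from the platform annotation; 12748 matched RefSeq gene identifiers (GRCr8). Where a list had no called gene, up to 3 genes of lowest p per comparison could be named; the 8 genes most like the mean were chosen by r. The members and lists were chosen with earlier results of these data known. Alternatives were other normalizations, floors and filters, fits of 2 groups, parts of the baseline, a replicate block and each array left out.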

Additional observations from a re-analysis of the deposited data

Results flagged for a closer look

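Of 55 groups of arrays, 1 for each of the 11 microglial and C1q probe sets in each of the 5 groups, 2 held an array far from the others by Dixon's test, where about 1 in 20 would by chance. Itgam on IFC array 2 was at 4.67 (log2 intensity), while the other 4 IFC arrays were at 6.78 to 7.23; the probe set was too dim to be tested. Tyrobp on IFC array 3 was at 8.79, while the other 4 IFC arrays were at 8.01 to 8.08. On the same array Csf1r (10.44), Fcer1g (10.91), Ctss (12.57) and Aif1 by the _s_at probe set (8.59) were also the highest of their IFC arrays. Cx3cr1 (8.03) and C1qb (9.38) were the lowest of theirs. The mean of the tested genes was highest in IFC on this array, at 0.13.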

How the results depend on the processing

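No microglial or C1q probe set was called under any alternative that was run. In each comparison, the difference of the tested microglial or C1q probe set with the lowest p was followed for its sign. These probe sets belong to Aif1, C1qa, C1qb, Laptm5 and Tyrobp, and Csf1 was followed in pain minus baseline. None of the differences followed changed sign under the alternatives run for them, but other differences of the same genes did, as given below. Leaving out 1 array at a time, the median of FC minus baseline ran between 0.08 and 0.26, of IFC minus FC between -0.26 and -0.12, of the interaction between -0.23 and -0.05, of pain minus baseline between -0.01 and 0.09, of isoflurane minus baseline between -0.16 and -0.02, of IFC minus baseline between -0.11 and 0.00, of FC minus pain between -0.02 and 0.16 and of IFC minus isoflurane between -0.08 and 0.01. With arrays centred on their medians, pain minus baseline was -0.10, where the median of all genes was itself -0.11. With baseline replicates 6 to 9 alone as the baseline, it was 0.16, isoflurane minus baseline 0.06, FC minus baseline 0.31 and IFC minus baseline 0.06, so the sign of the smaller ones depends on which baseline arrays are used. Of 40 differences of a tested microglial or C1q probe set from baseline, 8 changed sign with baseline replicates 1 to 5 alone and 6 with replicates 6 to 9 alone, among them FC minus baseline of Ctss (0.18, and -0.05 with replicates 1 to 5) and IFC minus baseline of C1qb (0.15, and -0.04).

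Pain, isoflurane, FC, IFC and baseline share replicate numbers 1 to 5. Arrays with the same number did not visibly deviate together. Their mean correlation lay between -0.04 and 0.04, and 6 of 25 arrays correlated best with an array of their own number. Whether the numbers pair the arrays is not stated, and a pairing with little effect on the values would not be seen this way. A fit blocked on replicate number was also run; it leaves out baseline replicates 6 to 9. Under this replicate block the median of FC minus baseline was 0.06, that of pain minus baseline -0.02, that of isoflurane minus baseline -0.13 and that of the interaction -0.05, and 0 probe sets were called. The median r of a gene with the other genes lay between 0.52 and 0.65 under 9 alternatives chosen after seeing the data. The number of arrays, and for Itgam the low signal, limit what could be detected.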
